A study of Homo sapiens with 18 samples.

Results

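The genes described here are the human zinc finger genes named ZNF and a number that reached a mean of 5 FPKM (read fragments scaled by transcript length and library size) or more in the DMSO libraries of at least 1 of the study's cell lines. There were 96 of them among 475 numbered ZNF genes and 26249 genes in all. They were chosen by their measured DMSO levels, so those levels are given as a description with no test. The study treated 2 human multiple myeloma lines, labelled XG1 and AMO1, for 6 h with the vehicle DMSO or with YKL-5-124, a covalent inhibitor of the transcription kinase CDK7, at 100 nM or 1000 nM. Each of the 6 groups had 3 libraries, 18 in all, made from RNA 3′ ends by the QuantSeq method. By their labels all libraries come from treated or vehicle-treated cells of these lines, with no genotype change named. Nothing in the labels states that replicates came from separate cultures, so each p-value rests on a spread between libraries that may be technical.

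C2H2 zinc finger proteins bind DNA, and some bind RNA, through repeated small domains that each fold around a zinc ion. Many numbered ZNF proteins also carry a KRAB box, which recruits TRIM28 and the histone H3 lysine 9 methyltransferase SETDB1 to silence repeats and genes. CDK7 phosphorylates the tail of RNA polymerase II and activates the kinases of the cell cycle.

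The label XG1 went against the marker genes. Summed over 10 plasma cell markers, the level was 44.4 to 75.9 FPKM in the 9 XG1 libraries and 4808 to 7249 FPKM in the 9 AMO1 libraries, and IRF4, PRDM1, SLAMF7, CD38 and POU2AF1 were under 1 FPKM in every XG1 library. Summed over 12 erythroid markers, it was 3537 to 4240 FPKM in the XG1 libraries and 4.15 to 30.0 FPKM in AMO1. The erythroid list was chosen with earlier results of these data known. Of the plasma cell markers 1 was at 10 FPKM or more in all 9 XG1 libraries and 9 in all 9 AMO1 libraries. Of the erythroid markers these counts were 9 and 0. The name XG1 libraries below repeats the label only. Between 9284 and 10571 genes per library reached 1 FPKM, and read depth is unknown because the files hold no counts.

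Promoters of 88 of the 96 members were matched in RefSeq on GRCh38.p14, taking the 250 bases before the annotated start. The motif CCGGAAG, searched on both strands, was in 34.1% of them, against 18.8% of 6152 other genes with the same DMSO floor, 11.8% of 15842 protein-coding promoters and 8.82% of all 27305. The motif GGGCGG was in 73.9% of member promoters, 69.3% of the other genes at the floor and 56.0% of protein-coding promoters. TATAAA was in 4.55%, 5.09% and 9.23% of them. GATGGCG was in 2.27%, 3.87% and 2.67%, and CGCGAGA in 3.41%, 6.58% and 4.17%. A match is a description of letters and not a binding site, and no test was made. The next 5 promoters, 5′ to 3′ on the gene's strand, belong to members that the results turn on: ZNF343 and ZNF143 hold CCGGAAG and GGGCGG, ZNF408 holds CCGGAAG, ZNF708 holds TATAAA and GGGCGG, and ZNF692 holds none of the 5 motifs. Capitals mark a motif or its reverse complement.
ZNF343, chr20:2524523-2524772, minus strand: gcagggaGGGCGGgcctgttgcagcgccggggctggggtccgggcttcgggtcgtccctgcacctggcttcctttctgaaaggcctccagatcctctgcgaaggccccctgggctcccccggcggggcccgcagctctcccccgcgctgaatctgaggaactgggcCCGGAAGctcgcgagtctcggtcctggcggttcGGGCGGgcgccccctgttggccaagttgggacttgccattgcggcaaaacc
ZNF143, chr11:9460762-9461011, plus strand: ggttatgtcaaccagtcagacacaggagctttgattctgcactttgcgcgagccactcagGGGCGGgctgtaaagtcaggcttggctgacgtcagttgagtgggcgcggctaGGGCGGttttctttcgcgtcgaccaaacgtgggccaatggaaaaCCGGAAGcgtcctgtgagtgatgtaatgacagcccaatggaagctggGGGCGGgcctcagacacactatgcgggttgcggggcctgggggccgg
ZNF408, chr11:46700781-46701030, plus strand: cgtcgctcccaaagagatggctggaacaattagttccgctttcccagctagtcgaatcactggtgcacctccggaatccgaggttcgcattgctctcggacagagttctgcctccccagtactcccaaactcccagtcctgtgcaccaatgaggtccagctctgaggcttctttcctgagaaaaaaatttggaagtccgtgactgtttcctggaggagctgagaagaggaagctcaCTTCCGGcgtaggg
ZNF692, chr1:248859086-248859335, minus strand: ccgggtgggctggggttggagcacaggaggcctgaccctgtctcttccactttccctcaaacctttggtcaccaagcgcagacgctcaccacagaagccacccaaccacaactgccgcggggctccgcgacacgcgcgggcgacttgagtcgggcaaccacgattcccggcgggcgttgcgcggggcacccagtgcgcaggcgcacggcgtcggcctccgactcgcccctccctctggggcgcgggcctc
ZNF708, chr19:21329411-21329660, minus strand: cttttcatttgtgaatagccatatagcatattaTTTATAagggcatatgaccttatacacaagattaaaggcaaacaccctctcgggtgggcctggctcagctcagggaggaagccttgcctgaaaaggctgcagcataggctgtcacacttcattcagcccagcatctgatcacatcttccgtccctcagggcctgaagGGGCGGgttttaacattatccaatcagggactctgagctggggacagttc
These windows held 21, 17, 11, 27 and 3 CpG dinucleotides, in that order, where the median member promoter held 19.5 and the median of other genes at the floor held 22.

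DMSO levels of the members ran from just above the floor to 508 FPKM, the mean of ZNF593 in AMO1. The highest DMSO mean was under 10 FPKM for 46 of the 96 and 50 FPKM or more for 5, and 188 of the 475 family genes were under 1 FPKM in all 6 groups. The floor was reached in both lines by 49 members, in the XG1 libraries alone by 17 and in AMO1 alone by 30. Just inside it lay ZNF680 at 5.02 FPKM and ZNF707 at 5.09 FPKM, and just outside it ZNF398 and ZNF430, both at 4.94 FPKM. The share of the family that reached the floor was 20.2%, against 29.6% of all genes. Levels of different genes are compared only roughly here, since the deposited unit divides by transcript length although 3′ libraries give about the same reads for long and short transcripts.

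Position and protein sequence were set beside those of the family genes below the floor, with no test, since expression chose the members. Chromosome 19, which carries the great KRAB zinc finger clusters, held 26 members (27.1%) and 212 of the 379 family genes below the floor (55.9%). A KRAB motif of leucine, tyrosine, any residue, aspartate, valine and methionine occurred in 21 of 96 members (21.9%) and in 161 of 376 others with a coding sequence (42.8%). With any residue in place of the aspartate, a form added after some known KRAB genes were seen to be missed, the counts were 29 (30.2%) and 237 (63.0%). Other KRAB boxes escape both patterns, so members without the motif are not called KRAB-free. The median number of C2H2 fingers was 8 in members and 11 in the others, and 34 members had fewer than 5 fingers.

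At 100 nM few members changed in either line. In bulk RNA a lower level in fewer cells and in all cells cannot be told apart. Among XG1 libraries 1 member rose and 2 fell by limma at an adjusted p under 0.05, where 6.61% of all 12204 genes tested were called, 2.63% as higher and 3.98% as lower. In AMO1 0 rose and 4 fell, where 2.20% of all genes were called, 0.434% as higher and 1.76% as lower. At an unadjusted p under 0.05 there were 20 members and 2501 of all 12204 genes in the XG1 libraries, and 23 members and 1846 genes in AMO1. The median log2 change of (FPKM + 1) over members was -0.07 in the XG1 libraries, against -0.01 over all genes, and -0.23 in AMO1, against -0.09. The riser in the XG1 libraries was ZNF408, a gene linked to retinal vessel development, with a log2 change of 0.67 ± 0.20 (SE, adjusted p = 0.046, limma). The 2 that fell there were ZNF692 (-0.96 ± 0.24, adjusted p = 0.0208, limma) and ZNF708 (-0.81 ± 0.24, adjusted p = 0.0476, limma). In AMO1 the 4 were ZNF414 (-1.09), ZNF473 (-0.91), ZNF775 (-0.76) and ZNF777 (-0.56). ZNF414 met the floor in AMO1 DMSO alone, the libraries its fall is measured against, so the rule helped to set that fall. Each of these 7 calls at 100 nM ended under at least 5 of 16 alternative settings. Other scalings gave 5 rises and 7 falls (library medians), 9 and 9 (quantile normalization), 6 and 8 (centring on the median deviation of all genes, added after seeing the data) and 1 and 1 (spike-ins) in the XG1 libraries. The same scalings gave 2 and 3, 0 and 2, 1 and 4, and 0 and 3 in AMO1. Leaving out each library in turn gave 0 to 4 calls in the XG1 libraries, with 0 without DMSO replicate 2 or 100 nM replicate 1 and 1 without DMSO replicate 1, DMSO replicate 3 or 100 nM replicate 3. It gave 0 to 14 in AMO1, with 14 without DMSO replicate 3 and 0 or 1 without any of the other 5 libraries.

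At 1000 nM more members fell than rose. In the XG1 libraries 1 rose and 16 fell, 17.7% of members against 17.6% of all genes tested (1.90% higher, 15.7% lower). That is close to the share of all genes. The share of genes with the same DMSO floor is not given for these libraries. In AMO1 3 rose and 23 fell, 27.1% of members against 17.1% of all genes (1.78% higher, 15.4% lower) and 20.9% of the 7763 genes with the same DMSO floor. The member median was -0.18 in the XG1 libraries and -0.30 in AMO1, on the log2 scale, beside -0.19 and -0.18 over all genes. Because the floor was set on DMSO libraries that also enter these comparisons, the counts were repeated for the 93 genes that reached 5 FPKM at 100 nM in a line. Of these, 83 were members. The 93 genes gave 1 rise and 13 falls in the XG1 libraries, and 3 rises and 17 falls (21.5%) in AMO1. That AMO1 share is close to the 20.9% of genes with the same DMSO floor. The share of all genes that reached 5 FPKM at 100 nM is not given here. Of the 96 members, 63 were called in neither line. The middle 50% of member changes ran from -0.44 to 0.01 in the XG1 libraries and from -0.57 to -0.05 in AMO1. Leaving out each library in turn gave 7 to 19 calls in the XG1 libraries, with 7 without DMSO replicate 1 or 1000 nM replicate 2 and 9 without DMSO replicate 2. It gave 8 to 38 in AMO1, and the AMO1 DMSO libraries 1, 2 and 3 gave 11, 8 and 38 when left out, while 1000 nM replicates 1 and 2 gave 14 and 13.

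**Figure D1:**
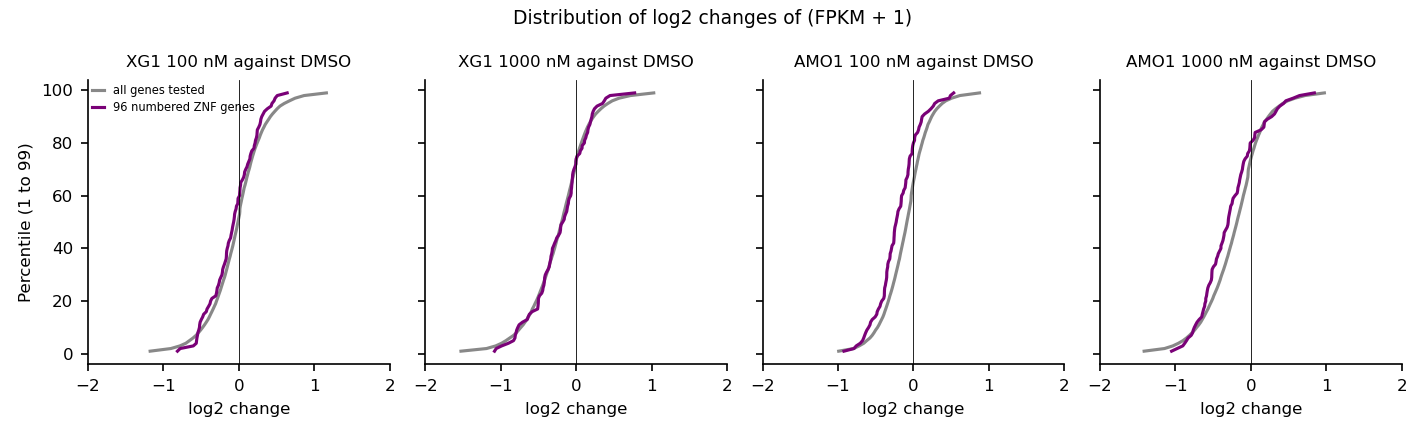
Percentiles 1 to 99 (vertical axis) of the log2 change of (FPKM + 1) against DMSO (horizontal axis) for the 96 members (purple) and all 12204 genes tested (grey), in 4 comparisons. The purple and grey curves lie close together at 1000 nM in the XG1 libraries (medians -0.18 and -0.19) and the purple curve lies left of the grey one in AMO1 (medians -0.30 and -0.18).

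The direction of these counts depends on how libraries are scaled. The deposited values give 1 rise and 16 falls in the XG1 libraries and 3 and 23 in AMO1, as does scaling on ERCC spike-ins. In the deposited values the spike-ins deviated only by -0.08 to 0.07 on the log2 scale. Scaling on them could therefore change these counts little, and the equal counts are no separate check. Centring each library on its median gives 11 rises and 8 falls, and 8 and 7. Quantile normalization gives 14 and 10, and 7 and 6. Centring on the median deviation gives 7 and 10, and 7 and 11. That centring moves the median of all genes from -0.19 to 0.02 in the XG1 libraries and from -0.18 to 0.04 in AMO1, and puts the member medians at 0.04 and -0.08.

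Of the called members, 10 fell in both lines at 1000 nM: ZNF146, ZNF207, ZNF22, ZNF343, ZNF414, ZNF511, ZNF692, ZNF706, ZNF770 and ZNF784. They are 10 of the 16 that fell in the XG1 libraries and 10 of the 23 that fell in AMO1, and over all genes 48.3% and 49.5% of the genes lower in 1 line were lower in the other. No member rose in both or moved in opposite directions, where 64 and 6 of all 12204 genes did. Of the 10, 0 hold the strict KRAB motif and 1 holds the looser one, they lie on 7 chromosomes, and 1 of the 9 with a matched promoter holds CCGGAAG. Under the deposited scaling 10 are called lower in both, but under library-median centring and quantile normalization 2 are, ZNF414 and ZNF692, and under deviation centring 3, these and ZNF22. Under each of those 3 scalings ZNF267, ZNF318 and ZNF655 are called higher in both. With no filter 4 are lower in both, with a replicate block 5, and with only the groups compared in each fit 6.

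**Figure D2:**
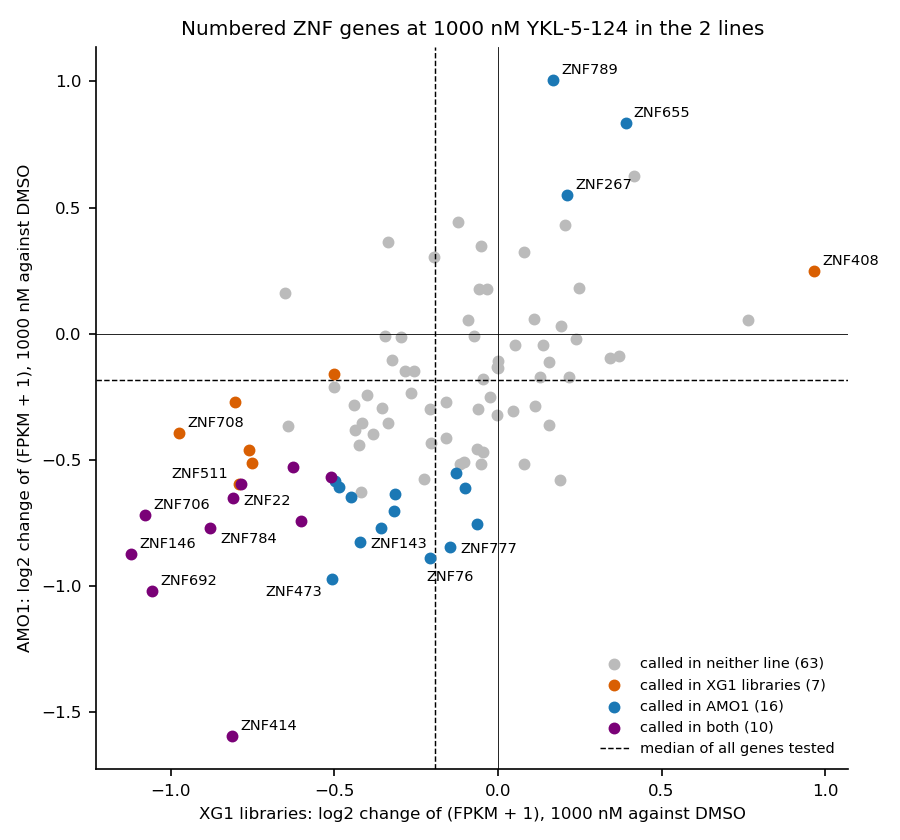
Log2 change of (FPKM + 1) at 1000 nM against DMSO in the XG1 libraries (horizontal axis) and in AMO1 (vertical axis) for the 96 members, coloured by the lines in which limma called them; dashed lines mark the median of all genes. The 10 genes called in both (purple) lie in the lower left, and ZNF408, ZNF655 and ZNF789 lie at the upper right.

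ZNF692, which binds the AICAR response element, fell in both lines. In the XG1 libraries it stood at 9.82, 13.0 and 10.6 FPKM in DMSO, 5.65, 5.38 and 4.68 at 100 nM and 5.07, 4.09 and 5.31 at 1000 nM. In AMO1 it stood at 10.6, 12.9 and 6.18, then 4.24, 4.45 and 7.08, then 5.70, 4.51 and 2.75. The DMSO and 1000 nM libraries do not overlap in either line. The log2 change at 1000 nM was -1.06 ± 0.24 (SE, adjusted p = 0.00516, limma) in the XG1 libraries and -1.02 ± 0.24 (adjusted p = 0.0063) in AMO1. The second call ends without AMO1 DMSO replicate 2 (adjusted p = 0.0513).

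ZNF414 had the largest fall of any member in AMO1. It read 9.99, 9.51 and 5.84 FPKM in DMSO and 1.67, 1.61 and 3.10 at 1000 nM, with no overlap, a log2 change of -1.60 ± 0.24 (SE, adjusted p = 0.000175, limma). ZNF414 met the floor in AMO1 DMSO alone, the libraries this fall is measured against, so the rule helped to set it. The XG1 libraries went from 5.17, 5.22 and 3.26 FPKM to 2.94, 1.54 and 2.01, a change of -0.81 ± 0.24 (adjusted p = 0.0222) that ends in 5 of 16 alternatives. The difference between the lines was 0.78 ± 0.33 and did not pass (adjusted p = 0.404).

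ZNF146 (also called OZF), ZNF22, ZNF706 and ZNF511 had DMSO levels above 16 FPKM in every library. ZNF146 went from 33.0, 36.6 and 27.4 FPKM to 15.2, 8.23 and 22.5 in the XG1 libraries (-1.12 ± 0.27, adjusted p = 0.00827, limma). The call ends without XG1 1000 nM replicate 2 (adjusted p = 0.0581), the library with 8.23. ZNF22 went from 42.9, 45.1 and 35.3 to 20.8, 19.7 and 29.2 (-0.81 ± 0.16, adjusted p = 0.00187). ZNF706 went from 23.4, 24.2 and 20.5 to 9.72, 6.52 and 16.4 (-1.08 ± 0.23, adjusted p = 0.00325). ZNF511 went from 61.0, 50.1 and 51.5 to 24.4, 31.9 and 37.8 (-0.79 ± 0.16, adjusted p = 0.00234). None of these groups overlap. In AMO1 the 4 changed by -0.87, -0.65, -0.72 and -0.60, in that order, and these calls ended in 11, 3, 9 and 5 of 16 alternatives.

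Calls that held in all 16 alternatives at 1000 nM were 6 in each line. For XG1 they were ZNF22, ZNF408, ZNF511, ZNF692, ZNF706 and ZNF708. In AMO1 they were ZNF143, ZNF414, ZNF473, ZNF655, ZNF777 and ZNF789. Both doses are set against the same DMSO libraries, which also chose the members. The alternatives draw on those libraries too, so this stability is no independent support. ZNF143 and ZNF414 met the floor in AMO1 DMSO alone. ZNF708 went from 10.9 ± 0.376 FPKM (SD, n = 3) in XG1 DMSO to 5.08 ± 0.901 at 1000 nM, a log2 change of -0.97 ± 0.24 (SE, adjusted p = 0.00819, limma).

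**Figure D3:**
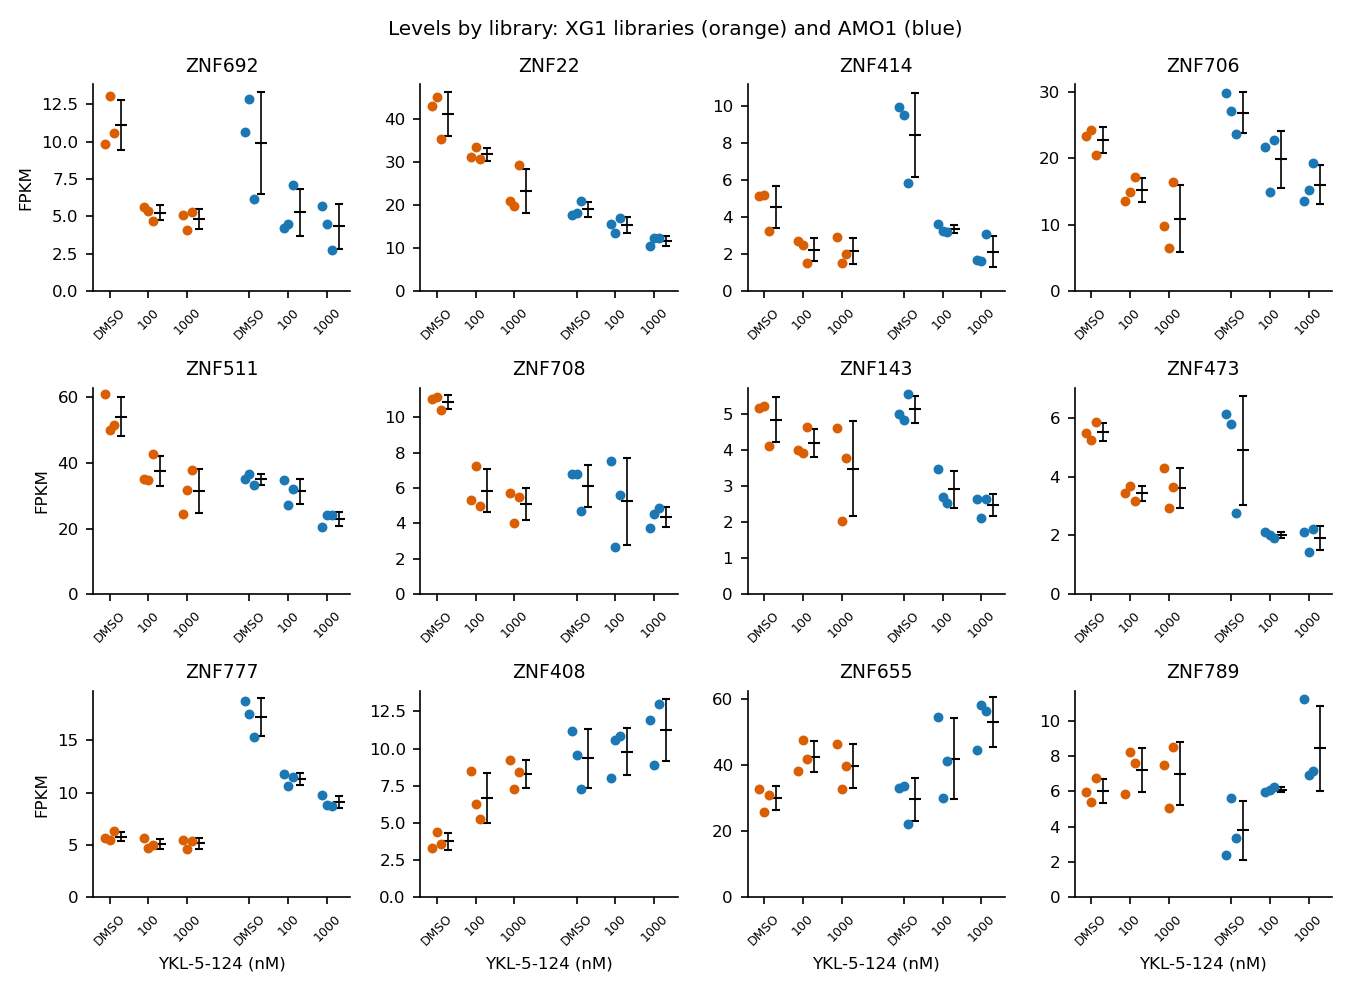
FPKM of the 12 members whose 1000 nM calls held in every alternative, by library; coloured points are the 3 libraries of a group, black marks the mean and SD, and the axis runs by dose of YKL-5-124 with XG1 libraries in orange and AMO1 in blue. ZNF692 falls in both lines, and ZNF408 rises in the XG1 libraries.

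ZNF143, an activator of small nuclear RNA genes, fell in AMO1 from 5.01, 4.84 and 5.56 FPKM to 2.65, 2.11 and 2.64, with no overlap (-0.83 ± 0.20, adjusted p = 0.0063, limma). ZNF143 met the floor in AMO1 DMSO alone, the libraries this fall is measured against, so its p-value is a description only. In the XG1 libraries 5.17, 5.24 and 4.12 FPKM stood against 4.62, 2.04 and 3.78, which overlap, and the change of -0.42 did not pass (adjusted p = 0.146). ZNF473, which takes part in histone pre-messenger RNA processing, fell in AMO1 from 6.15, 5.81 and 2.77 to 2.11, 1.44 and 2.21 (-0.97 ± 0.21, adjusted p = 0.00312). ZNF473 in the XG1 libraries changed by -0.51, with no overlap, and did not pass (adjusted p = 0.0972, limma). ZNF777 fell in AMO1 from 18.8, 17.6 and 15.3 to 9.78, 8.86 and 8.71 (-0.85 ± 0.14, adjusted p = 0.000572). ZNF777 in the XG1 libraries changed by -0.15 (adjusted p = 0.539), and the difference of the lines, 0.70 ± 0.20, did not pass (adjusted p = 0.129).

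Other falls passed in 1 line only, and no difference between the lines passed for any member. ZNF639 went from 27.5 ± 5.55 FPKM (SD, n = 3) to 15.8 ± 4.97 in the XG1 libraries (-0.79 ± 0.21, adjusted p = 0.0128, limma). In AMO1 it changed by -0.60, with no overlap, just short of passing (adjusted p = 0.053, limma). ZNF239 went from 7.38, 4.45 and 3.44 to 2.74, 1.57 and 2.97 in the XG1 libraries (-0.80 ± 0.24, adjusted p = 0.0277). These groups do not overlap, and ZNF239 was under 0.5 FPKM in all AMO1 libraries. ZNF239 thus met the floor in XG1 DMSO alone, the libraries its fall is measured against, so its p-value is a description only. ZNF76, the paralog of ZNF143, went from 18.6, 16.5 and 9.39 to 6.48, 6.74 and 8.67 in AMO1 (-0.89 ± 0.23, adjusted p = 0.01). ZNF787 went from 25.1 ± 5.93 (SD, n = 3) in DMSO to 15.2, 14.5 and 12.4 in AMO1 (-0.77 ± 0.18, adjusted p = 0.00657), a call that ends without DMSO replicate 2 (adjusted p = 0.0518). Neither gene's DMSO and 1000 nM libraries overlap in AMO1. ZNF239 ended in 10 of 16 alternatives, ZNF639 in 4 and ZNF76 in 3.

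The risers were ZNF408 in the XG1 libraries and ZNF789, ZNF655 and ZNF267 in AMO1. ZNF408 rose in the XG1 libraries from 3.30, 4.42 and 3.59 FPKM to 9.21, 7.30 and 8.40 (0.97 ± 0.20, adjusted p = 0.00234, limma), with 8.50, 6.24 and 5.26 at 100 nM. In AMO1 it read 11.2, 9.60 and 7.26 in DMSO and 11.9, 8.92 and 13.0 at 1000 nM, a change of 0.25 (adjusted p = 0.446), and the difference of the lines was 0.72 ± 0.28 (adjusted p = 0.337). ZNF789 rose in AMO1 from 2.39, 5.63 and 3.34 to 11.2, 6.91 and 7.17 (1.01 ± 0.23, adjusted p = 0.00526). ZNF655, a protein that binds the signalling factor VAV, rose from 32.9, 33.6 and 22.1 to 44.4, 58.1 and 56.4 (0.83 ± 0.20, adjusted p = 0.008). ZNF655 in the XG1 libraries changed by 0.39 (adjusted p = 0.204).

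Other members were listed for their known roles. ZNF207 (BuGZ), a spindle protein, went from 95.2, 91.9 and 74.2 FPKM to 57.0, 55.7 and 69.5 in the XG1 libraries (-0.51 ± 0.16, adjusted p = 0.0308, limma) and from 105, 107 and 84.8 to 59.6, 65.0 and 74.0 in AMO1 (-0.57 ± 0.16, adjusted p = 0.0183). Its DMSO and 1000 nM libraries do not overlap in either line, and the calls end in 9 and 8 of 16 alternatives. ZNF326, part of the DBIRD complex of splicing and elongation, changed by -0.65 in AMO1 (adjusted p = 0.0149) and -0.45 in the XG1 libraries (adjusted p = 0.0813). ZNF410, an activator of CHD4, changed by -0.61 (adjusted p = 0.0242) and -0.10 (adjusted p = 0.773). ZNF593 and ZNF622, both involved in 60S ribosome maturation, changed by -0.38 and -0.02 in AMO1 and by -0.44 and 0.24 in the XG1 libraries, and none passed. ZNF593 in AMO1 DMSO read 579, 588 and 358 FPKM, and without replicate 3, the library at 358, its change was -0.61 (adjusted p = 0.00154, limma). Without DMSO replicate 1 or 2 the change was -0.27 (adjusted p = 0.385) and -0.26 (adjusted p = 0.4255), and no other alternative called it. ZNF598, a ubiquitin ligase at collided ribosomes, and ZNF217, a corepressor-associated oncogene, changed by -0.46 and -0.35 in AMO1 and did not pass. Of 24 genes listed for a known role 18 were members, and at 1000 nM 0 of these rose in either line, 2 fell in the XG1 libraries and 4 fell in AMO1. Over all genes 15.7% and 15.4% fell and 1.90% and 1.78% rose. The other fall was of ZNF131 in the XG1 libraries (-0.50, adjusted p = 0.0337). The 6 below the floor were ZNF274, ZNF292, ZNF384, ZNF91, ZNF93 and ZNF10, with DMSO means of at most 2.74 FPKM.

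The response of the 2 doses and of the 2 lines was compared directly. For 1000 nM against 100 nM no member was called in either line by limma, where 0.139% and 0.180% of genes were called. At an unadjusted p under 0.05 there were 15 members and 1995 of 12204 genes in the XG1 libraries, and 5 members and 1282 genes in AMO1. The member medians were -0.12 and -0.06, beside -0.18 and -0.11 over all genes. The difference of line responses had no called member at 100 nM (0.156% of genes called, 4 members and 1071 genes unadjusted) or at 1000 nM (0.680%, 10 members and 1231 genes unadjusted).

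Groups within the members are given by counts at the deposited scaling, with no test, beside 1.78% of all genes called higher and 15.4% lower in AMO1 and 1.90% and 15.7% in the XG1 libraries. At 1000 nM in AMO1 the 21 with the strict KRAB motif gave 2 rises and 1 fall with a median of -0.17, and the 75 without it gave 1 rise and 22 falls with a median of -0.35. The median DMSO level in AMO1 was 5.98 FPKM in the first group and 10.5 FPKM in the second. In the XG1 libraries it was 6.55 and 6.12 FPKM. The part of the level in the counts was not tested. The XG1 counts were 0 and 1 against 1 and 15. With the looser motif the AMO1 counts were 2 and 3 of 29 against 1 and 20 of 67, and the XG1 counts 0 and 3 against 1 and 13. In AMO1 the 26 members on chromosome 19 gave 0 rises and 7 falls, and the 70 elsewhere 3 rises and 16 falls.

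The machinery that KRAB proteins recruit was read from a list of 29 genes tested. At 1000 nM 0 rose and 4 fell in the XG1 libraries, and 0 rose and 4 fell in AMO1. Over all genes 15.7% and 15.4% fell, so these counts are near the background. The list's medians were -0.34 and -0.31, beside -0.19 and -0.18 over all genes. SETDB1 went from 9.59 ± 1.36 FPKM (SD, n = 3) to 5.01 ± 0.168 in the XG1 libraries (-0.81 ± 0.21, adjusted p = 0.0124, limma) and from 73.5 ± 23.6 to 35.2 ± 6.75 in AMO1 (-1.01 ± 0.21, adjusted p = 0.00284). SMARCAD1, a chromatin remodeller, changed by -0.93 (adjusted p = 0.00995, limma) and -1.29 (adjusted p = 0.000993). Its DMSO and 1000 nM libraries overlap in the XG1 libraries and do not overlap in AMO1. TRIM28 was not called, with changes of -0.29 and -0.39.

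The 2 lines were then compared at 100 nM, in libraries the rule did not use. There 25 members were higher in the XG1 libraries and 29 higher in AMO1, 56.3% of members, where 65.0% of all genes were called, 32.6% as higher and 32.4% as lower in the XG1 libraries. Spike-in scaling turned the balance to 27 higher and 23 lower, and library-median centring gave 25 and 39. Deviation centring and quantile normalization each gave 28 and 34. The DMSO floor enters this split: the 17 members below it in AMO1 DMSO gave 15 higher in the XG1 libraries and the 30 below it in XG1 DMSO gave 21 higher in AMO1. Among the 49 at the floor in both lines 10 were higher and 8 lower in the XG1 libraries. Of the genes with the largest differences, 7 met the floor in 1 line only, the line where they are high, so their values are a description with no test. ZNF711, a partner of the demethylase PHF8, stood at 6.04, 7.87 and 6.30 FPKM in the XG1 libraries and 0.0896, 0.0753 and 0.109 in AMO1. The log2 differences, XG1 libraries minus AMO1, were 2.82 for ZNF711, 2.91 for ZNF717, 2.66 for ZNF558, 2.44 for ZNF74 and 1.90 for ZNF239, and -3.15 for ZNF419 and -2.21 for ZNF687. The other 3 met the floor in both lines. ZNF593 stood at 124, 115 and 109 FPKM in the XG1 libraries and 406, 497 and 519 in AMO1 (-2.02 ± 0.17, adjusted p = 1.7e-09, limma). ZNF276 (-1.57 ± 0.18, adjusted p = 3.03e-07) and ZNF576 (-1.57 ± 0.19, adjusted p = 5.73e-07) were also higher in AMO1. For these 3 the libraries of the lines do not overlap.

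**Figure D4:**
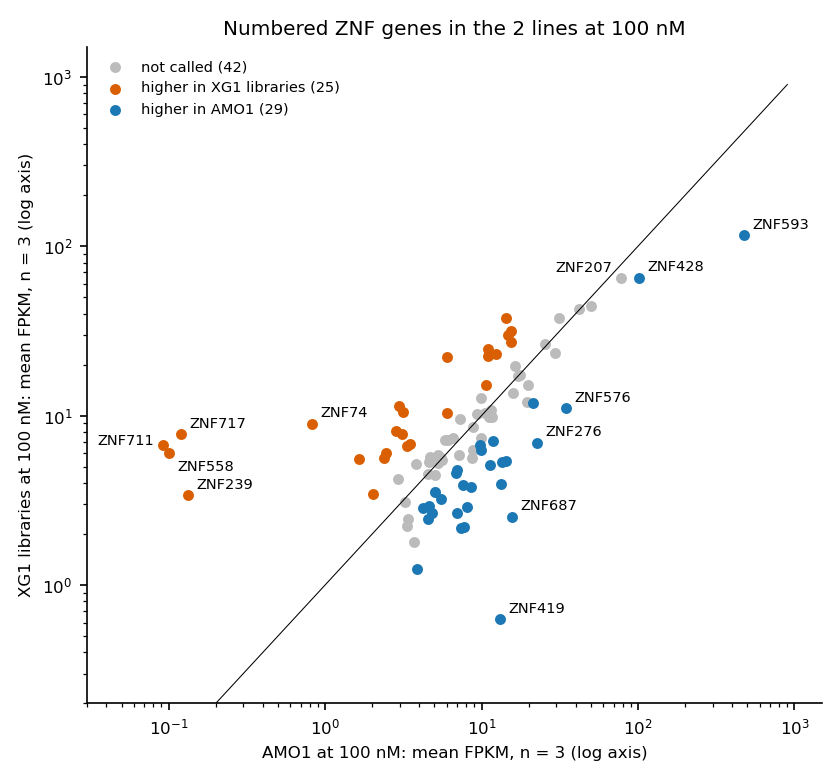
Mean FPKM of the 96 members at 100 nM in AMO1 (horizontal) and the XG1 libraries (vertical), n = 3 each, both axes logarithmic, with the line of equal levels. Coloured points are the 25 members called higher in the XG1 libraries and the 29 called higher in AMO1; ZNF711 lies far above the line and ZNF593 far below it.

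Near-identical family members can share reads at their 3′ ends, and the sources used here do not state whether reads were counted by strand. Values of ZNF717, ZNF708 and members of the same cluster are uncertain to that extent.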

How the data were processed

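The authors deposited 1 table per library with a value per gene, read here as FPKM. The unit is inferred: per the submitters' processing notes the tools named were HISAT2 and Cuffnorm with build hg19, and per the file headers the column is only called Expression. The sources used here give neither depth nor strand setting. Groups came from the labels. The members and lists were chosen with earlier results of these data known.

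All 18 libraries were fitted with limma 3.58.1 (trend, robust) in R 4.3.3 on log2(FPKM + 1), with genes of a mean of 1 FPKM or more in at least 1 group (12204 genes), and p-values adjusted by Benjamini-Hochberg at 0.05; fold changes on this scale understate low genes. The script was tested on simulated data. Named genes were the 10 largest falls and rises at 1000 nM in each line among called members whose groups do not overlap, 5 each way in other comparisons, and members with known roles; members lower in both lines were named after their values were seen. Protein features came from GENCODE 29 coding sequences, since the RefSeq protein table was not used here; promoters came from RefSeq GRCh38.p14. Replicate numbers were not treated as pairs, since same-numbered libraries deviated together with r of -0.124 to 0.091. Alternatives covered pseudocount, filter, scaling, samples in the fit, a replicate block and left-out libraries.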

Additional observations from a re-analysis of the deposited data

How the results depend on the processing

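Counts of members called by limma moved as follows. At 100 nM in the XG1 libraries the 3 calls became 0 with no filter, 12 with library-median centring, 18 with quantile normalization, 14 with deviation centring (added after seeing the data), 8 with only the groups compared, and 0 to 4 with a library left out. At 1000 nM in the XG1 libraries the 17 calls became 11 with no filter and 7 to 19 with a library left out; the lowest, 7, came without XG1 DMSO replicate 1 and without XG1 1000 nM replicate 2, and 9 without XG1 DMSO replicate 2. At 100 nM in AMO1 the 4 calls became 2 with the 100 nM floor, 1 with pseudocount 0.1, 7 with pseudocount 5, 2 with quantile normalization, 1 with only the groups compared, and 0 to 14 with a library left out, 14 coming without AMO1 DMSO replicate 3. At 1000 nM in AMO1 the 26 calls became 15 with library centring, 13 with quantile normalization, and 8 to 38 with a library left out; 8 came without AMO1 DMSO replicate 2, 11 without AMO1 DMSO replicate 1, and 14 and 13 without AMO1 1000 nM replicates 1 and 2. For 1000 against 100 nM in the XG1 libraries 0 calls became 2 without XG1 1000 nM replicate 3, and for the difference of line responses at 1000 nM 0 became 1 with pseudocount 5. Of the results for named genes that were not called, 15 were called under an alternative. ZNF24 in the XG1 libraries at 1000 nM changed by 0.00 and was called at 0.32 (adjusted p = 0.0205) with quantile normalization. The cause was not tested.

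With the replicate block, whose numbers do not pair the libraries, calls were 0 at 100 nM in the XG1 libraries, 1 at 100 nM in AMO1 and 16 at 1000 nM in AMO1. Of 60 called results for named genes, 22 held in every alternative, 691 of 960 repeats kept the call, 269 lost it and 0 reversed. These totals include line differences that the DMSO floor helped to set, whose stability is no support. They also include calls against the DMSO libraries that chose the members, whose stability is no independent support.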
